A study of Mus musculus with 11 samples.

Results

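Liver transcripts of 4 mice killed 6 h after an injection of 5'-adenosine monophosphate (5'-AMP) at 0.5 mg/g were compared with those of 3 mice given vehicle. These 7 arrays are part of a series of 11 on the same platform. The members of the comparison are the probes with a detection p-value under 0.05 on at least 3 of the 7 arrays, which kept 16061 of 45281 probes. All animals were female C57Bl/6 mice, with 1 Illumina mouse BeadChip array of liver total RNA per animal. The series names the 6 h group AIHM and the controls G1-Control, and the other 4 arrays, labelled Rev Flip, come from mice killed 12 h after the same dose. The labels do not say what AIHM or Rev Flip stands for, when the controls were killed, how old the animals were, or whether they were fasted. Time of day therefore cannot be told apart from treatment, and the groups of 6 h and 12 h may be unlike in other ways than time.

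The series title places these livers in a state of hypometabolism that 5'-AMP induces in mice. As background, extracellular 5'-AMP is dephosphorylated to adenosine, which acts on G protein-coupled receptors that raise or lower cyclic AMP, and is taken up and rephosphorylated inside cells. The liver stores and releases glucose under the control of glucagon, adrenaline and insulin, and cyclic AMP carries the signal of the first pair. Immediate early genes such as Fos and Egr1 encode short-lived transcription factors that many signals switch on without new protein synthesis, and phosphatases, mRNA decay factors and SOCS proteins, which such signals also induce, shut the signals down again.

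Values are log2 signals after background correction and quantile normalization, changes are 6 h minus control on that scale with the standard error (SE) of the limma fit, and a probe was called where its Benjamini-Hochberg adjusted p was under 0.05. The controls had mean signals of 422 to 542 per array, and 6 h arrays 1 to 4 had 468, 635, 458 and 607. In the controls 15174 to 15663 probes were detected per array, and at 6 h 15403 to 15903. Of 12 hepatocyte markers 11 were kept, each was detected on all 7 arrays and none was called (median -0.04), although the Alb probe (Alb1 on the array) read only 5.91 to 7.07. The 4 livers at 6 h did not lie together. On the first principal component of the 7 arrays (41.7% of the variance) the controls lay at -23.7, -21.38 and -13.63, and 6 h arrays 1 to 4 at 40.67, -3.59, 38.87 and -17.24. The 6 h arrays 1 and 3, farthest from the controls, also had lower mean signals than arrays 2 and 4. The part of array brightness in this split was not tested. Skeletal muscle genes stood out on 6 h array 2 alone. Mylpf, a fast muscle myosin light chain, read 9.42 there and 5.27 to 5.58 on the other 6 arrays, and Tnni2, fast troponin I, read 10.18 there and 4.81 to 5.54 elsewhere. Of the 2 adipocyte markers kept, Cfd read 6.36, 10.57, 5.06 and 8.51 on the 6 h arrays and 7.69 to 9.07 in the controls. The part of these cells in the results was not tested. The arrays lay on 5 BeadChips, and 3 chips held both groups. Within each of these 3 chips, changes are given below for the leading genes.

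At 6 h 154 probes were called, 0.959% of the 16061 tested. Of these 98 (0.61%) were higher and 56 (0.349%) lower, standing for 87 and 55 gene names as the array gives them. Rises were larger than falls. Among the called probes 75 rose at least 2-fold and 37 at least 4-fold, against 18 that fell at least 2-fold and 0 at least 4-fold. The median change was 1.68 for called rises, -0.78 for called falls and -0.01 for all probes. The 6 h and control arrays did not overlap for any of the 154, as for 13.7% of all probes. A fit of the 7 arrays alone, with 5 residual degrees of freedom in place of 8, called 58 probes, of which 53 were higher (91.4% against 63.6%), and 57 of them were among the 154. With the chip as a block 68 were called (86.8% higher) and 64 were shared. Without control 1, 2 or 3 the count was 84, 74 or 73. Without 6 h array 1, 2, 3 or 4 it was 101, 190, 85 or 258. Centring the arrays on their medians in place of quantile normalization moved the median of all probes to 0.13 and called 298 probes, 93% of them higher. In bulk liver, fewer cells of a type and less RNA per cell cannot be told apart.

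**Figure D1:**
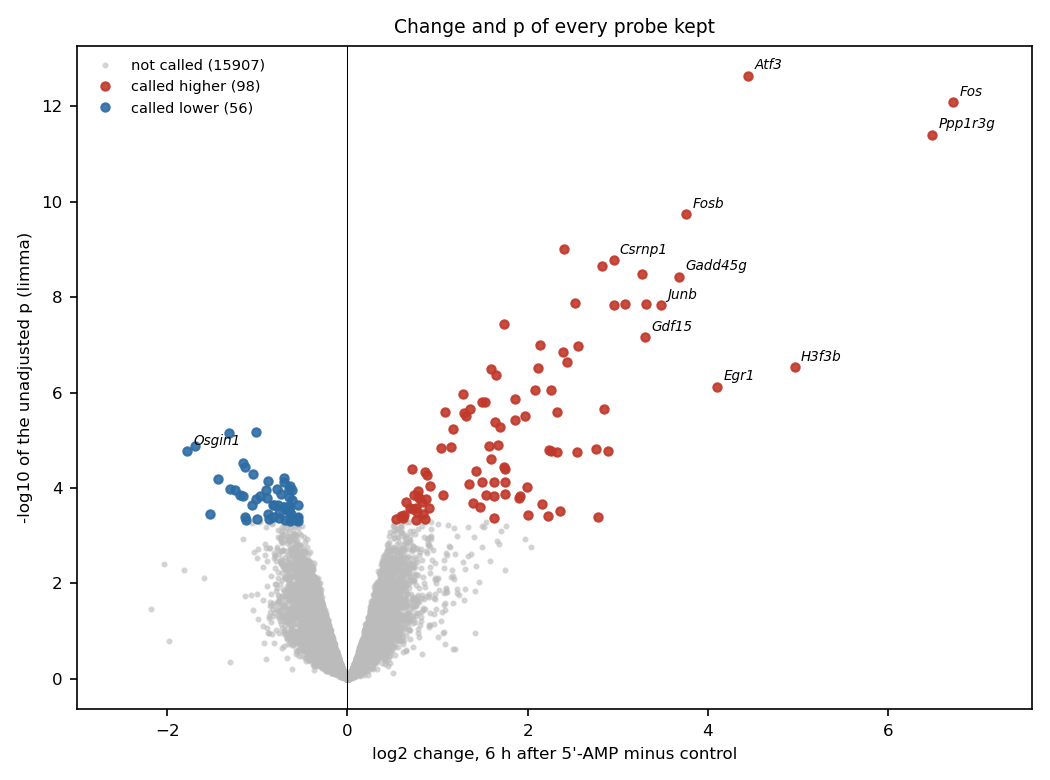
Change at 6 h (x axis, log2) against the -log10 unadjusted p of the limma test (y axis) for the 16061 probes kept, with called rises in red and called falls in blue. The rises reach 6.73 (Fos) and the called falls end at -1.78 (Osgin1), so the called probes spread much farther to the right.

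The largest change in the fit was that of Fos, which encodes a subunit of the AP-1 transcription factor. Its probe was detected on 1 of the 3 controls and on all 4 arrays at 6 h, and read 5.05, 6.20 and 5.38 in the controls and 12.22, 12.12, 12.26 and 12.49 at 6 h. All 4 treated livers were thus over 5 log2 units above the highest control, and the mean change was 6.73 ± 0.22 (adjusted p = 6.56e-09), with 2 of the 3 controls at background signal. Within the 3 chips Fos gave 6.79, 6.05 and 7.44. Atf3, a stress-induced factor of the ATF family, read 4.70 to 4.99 in the controls, below background on each, and 9.24, 9.20, 9.52 and 9.22 at 6 h. It stood at least 15.03-fold above the controls (adjusted p = 3.66e-09), with 4.38, 4.53 and 4.51 within the chips. The 4 treated livers differed in Atf3 by an SD of 0.15, against 0.14 in the controls.

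Of the 10 AP-1 and ATF genes kept, counted by the brightest probe of each gene, 5 rose and none fell (median change 1.50). Over all 11387 genes counted in this way, 1.03% were called, 0.676% higher and 0.351% lower. Junb, a partner of Fos, read 7.07, 7.88 and 8.39 in the controls and 11.44, 11.30, 11.40 and 10.90 at 6 h (3.48 ± 0.26). Jun itself rose by 2.83 ± 0.18 (adjusted p = 4.98e-06), and Fosl2 by 2.24 ± 0.33 (adjusted p = 0.00504). Fosb depended on the probe. A probe below background in every control read 9.11, 8.27, 8.85 and 8.32 at 6 h and was at least 9.54-fold higher, whereas the brighter probe, which stands for Fosb in the count, gave -0.13 (adjusted p = 0.913). Jund, Atf4 and Mafg gave 0.76, 0.36 and 0.35, none of them called.

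Among 16 other early response genes 8 rose and none fell (median 0.76). Egr1, a zinc finger transcription factor, read 8.42, 11.11 and 9.23 in the controls and 13.77, 13.48, 13.77 and 13.75 at 6 h. The controls differed far more than the treated livers (SD 1.38 against 0.14), and the change was 4.11 ± 0.44 (adjusted p = 0.000478) with 4.39, 2.67 and 5.33 within the chips. Csrnp1 (Axud1 on the array), a nuclear protein, rose by 2.96 ± 0.19 and Ccn1 (Cyr61), a secreted matrix protein, by 2.41 ± 0.14 by its brighter probe, which was detected on 1 of 3 controls. The kinase gene Plk3 rose by 2.39 ± 0.22, and Ier2 was at least 2.81-fold higher, being undetected in the controls. Rgs1, which speeds the inactivation of G proteins, was at least 4.91-fold higher by one probe and at least 2.30-fold by the other (adjusted p = 1.69e-05 and 0.00029). Smaller rises were those of Srf, the serum response factor (0.71 ± 0.11, adjusted p = 0.0103, 0.0652 without control 1), and of Ier3 (0.77 ± 0.15, adjusted p = 0.0401, 0.17 at worst without control 1 or 2, 6 h array 1, 2 or 4, or any 12 h array). None of 12 Kruppel-like factor genes was called. Klf2 came closest at 0.81 ± 0.21 (adjusted p = 0.0969).

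**Figure D2:**
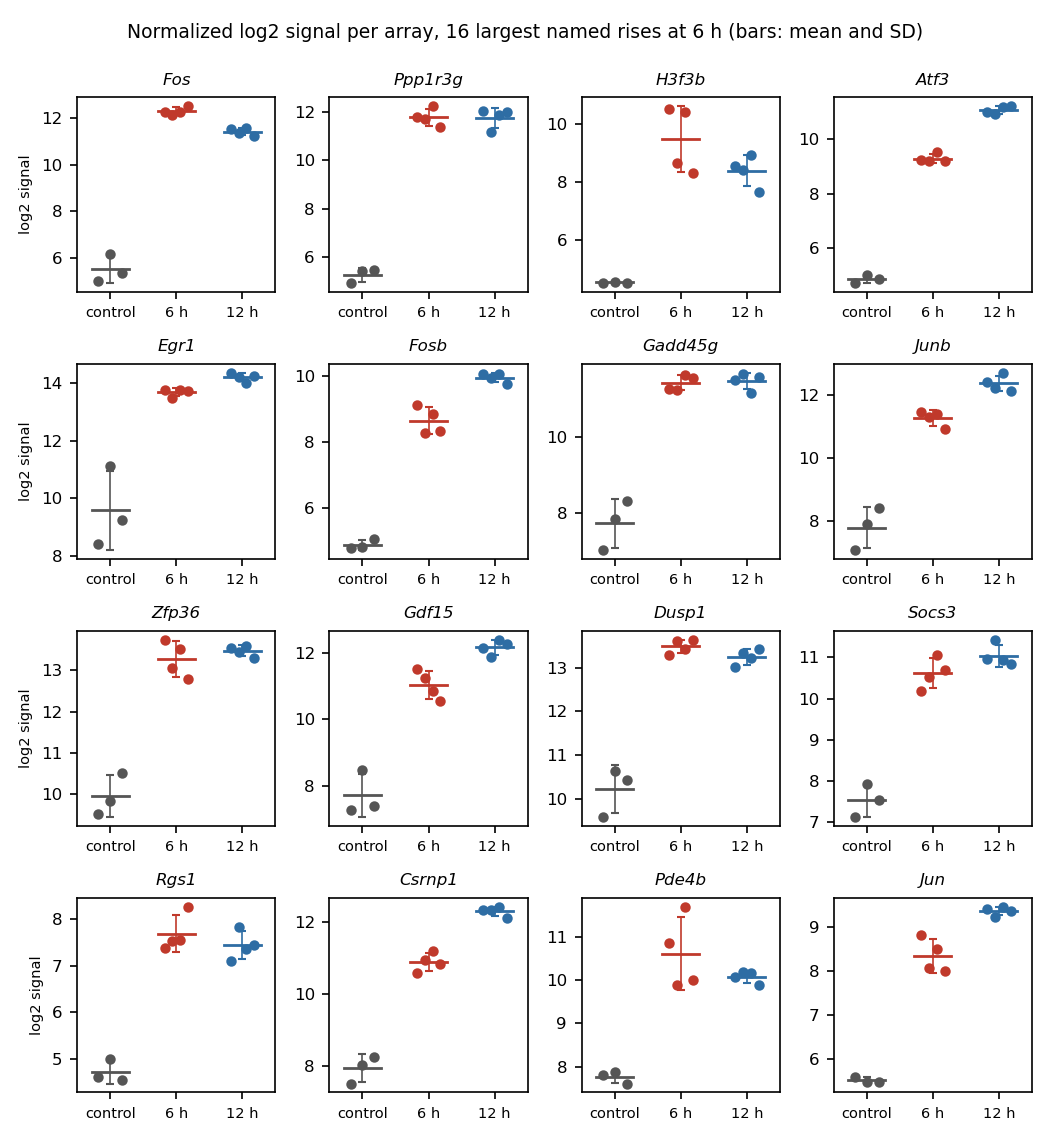
Normalized log2 signal (y axis, own scale per panel) on each array for the 16 named genes with the largest rises, by group: 3 controls (grey), 4 arrays at 6 h (red) and 4 at 12 h (blue), with group mean and SD. The naming rule took only rises whose lowest 6 h array lies above the highest control, so every panel shows this. H3f3b and Pde4b show the widest spread at 6 h.

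The promoters of 8 of the most strongly raised genes are shown because at least 1 probe of each was called higher and because each window holds a core of the cyclic AMP response element (TGACG, or CGTCA on the other strand), the full element (TGACGTCA) or a CArG box, the site of serum response factor. Windows run from 250 bases before to 50 after the RefSeq transcript start on GRCm38.p6, written 5′ to 3′ on the strand of the gene, with matches in capitals. The full element holds the core on both strands, so that in Dusp1 the cores 143 and 140 bases before the start lie within it. The Zfp36 match is to the CArG box and the others to the core or full element.
Fos, chr12:85473640-85473939, plus strand: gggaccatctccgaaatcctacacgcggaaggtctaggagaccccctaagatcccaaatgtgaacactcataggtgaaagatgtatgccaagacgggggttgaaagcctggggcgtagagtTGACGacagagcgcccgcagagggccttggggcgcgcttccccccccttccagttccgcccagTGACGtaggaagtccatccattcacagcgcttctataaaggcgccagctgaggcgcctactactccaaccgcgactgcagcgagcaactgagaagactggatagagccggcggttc
Ppp1r3g, chr13:35967656-35967955, plus strand: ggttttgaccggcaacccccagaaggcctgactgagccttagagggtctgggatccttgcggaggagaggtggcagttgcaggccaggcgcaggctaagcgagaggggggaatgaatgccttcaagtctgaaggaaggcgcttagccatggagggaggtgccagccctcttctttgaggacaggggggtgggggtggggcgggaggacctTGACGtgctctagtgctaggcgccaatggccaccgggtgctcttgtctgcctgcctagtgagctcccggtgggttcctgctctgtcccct
H3f3b, chr11:116024455-116024754, minus strand: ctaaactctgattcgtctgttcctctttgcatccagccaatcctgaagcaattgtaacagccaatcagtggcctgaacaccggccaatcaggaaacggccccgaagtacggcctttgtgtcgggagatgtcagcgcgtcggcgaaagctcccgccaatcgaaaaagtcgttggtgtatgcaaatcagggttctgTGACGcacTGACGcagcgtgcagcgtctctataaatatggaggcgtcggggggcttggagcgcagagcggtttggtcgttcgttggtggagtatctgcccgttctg
Atf3, chr1:191183284-191183583, minus strand: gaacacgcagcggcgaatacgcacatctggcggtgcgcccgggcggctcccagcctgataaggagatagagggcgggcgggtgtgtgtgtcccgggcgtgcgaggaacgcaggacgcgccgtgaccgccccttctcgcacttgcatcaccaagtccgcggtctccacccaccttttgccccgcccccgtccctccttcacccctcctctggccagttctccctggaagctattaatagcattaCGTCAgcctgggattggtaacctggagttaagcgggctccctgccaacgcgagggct
Fosb, chr7:19309996-19310295, minus strand: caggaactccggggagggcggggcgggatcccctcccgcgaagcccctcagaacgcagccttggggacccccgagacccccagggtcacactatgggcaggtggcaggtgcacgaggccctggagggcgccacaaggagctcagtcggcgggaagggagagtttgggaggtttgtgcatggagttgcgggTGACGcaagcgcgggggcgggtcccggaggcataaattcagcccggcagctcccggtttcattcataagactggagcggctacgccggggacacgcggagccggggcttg
Junb, chr8:84978699-84978998, minus strand: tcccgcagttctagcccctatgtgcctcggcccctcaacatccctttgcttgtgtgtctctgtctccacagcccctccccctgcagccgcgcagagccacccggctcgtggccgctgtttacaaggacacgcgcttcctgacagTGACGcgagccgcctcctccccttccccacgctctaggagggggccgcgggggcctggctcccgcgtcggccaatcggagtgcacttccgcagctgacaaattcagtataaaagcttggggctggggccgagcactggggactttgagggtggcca
Zfp36, chr7:28379179-28379478, minus strand: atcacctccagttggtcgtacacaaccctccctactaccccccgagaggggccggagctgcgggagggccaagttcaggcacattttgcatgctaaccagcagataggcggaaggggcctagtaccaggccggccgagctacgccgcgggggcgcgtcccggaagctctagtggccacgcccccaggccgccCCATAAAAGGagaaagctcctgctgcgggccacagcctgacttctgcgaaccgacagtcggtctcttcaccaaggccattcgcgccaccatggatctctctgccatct
Dusp1, chr17:26508423-26508722, minus strand: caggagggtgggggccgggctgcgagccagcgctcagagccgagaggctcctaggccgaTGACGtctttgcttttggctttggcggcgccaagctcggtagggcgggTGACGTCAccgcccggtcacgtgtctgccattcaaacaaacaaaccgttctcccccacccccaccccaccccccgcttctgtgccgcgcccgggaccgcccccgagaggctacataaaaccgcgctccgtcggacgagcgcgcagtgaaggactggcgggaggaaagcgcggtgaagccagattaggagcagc

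Of the 25 genes with the largest named rises, 21 had an entry in the RefSeq promoter table, with 29 windows, and 19 of these windows held the core. Among all 32851 windows the share was 20.8%, and among the 29 windows of genes with the largest named falls 7 held it. Some genes had several windows, all 4 of Csrnp1 with the core. By gene it was in 15 of 21 rises and 7 of 23 falls. Egr1, Sik1, Rgs1 and Ier2 had no entry and are in none of these counts. The full element was in 1 rise window (1.79% of all windows), the AP-1 site TGANTCA in 1 (7.81%), the E-box CACGTG in 4 (7.15%), and the C/EBP-ATF element TGATGNAA in 2 (3.97%). A CArG box was in 1 rise window (1.63%), the glucocorticoid response element in 0 (0.475%) and the TATA box TATAAA in 5 (13.6%). Both strands were searched, and windows of 1 gene can overlap. A match is a description of letters in the window and no evidence of binding.

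Ppp1r3g, which the array lists under the clone name 1600032L17Rik, showed the second largest change. It encodes a subunit that brings protein phosphatase to glycogen, and in mice it is known to raise liver glycogen synthesis after meals. Its brighter probe, detected on 2 of the 3 controls, read 4.94, 5.42 and 5.48 in the controls and 11.77, 11.71, 12.24 and 11.38 at 6 h, a change of 6.49 ± 0.24 (adjusted p = 2.09e-08). The changes within the 3 chips were 6.25, 6.82 and 6.44, and the 12 h mean of 11.75 was close to the 6 h mean (difference -0.02, adjusted p = 0.978). Its other probe rose by 1.75 ± 0.28 (adjusted p = 0.0103, 0.0678 at worst without control 1 or 2). No other of the 16 glycogen and glucose uptake genes kept was called (median 0.18). Gbe1, the branching enzyme, gave 1.28 ± 0.36 (adjusted p = 0.119), the synthase gene Gys2 0.44, the phosphorylase gene Pygl 0.46, and the related targeting subunits Ppp1r3b and Ppp1r3c 0.23 and -0.42.

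Pde4b, a phosphodiesterase that degrades cyclic AMP and is in none of the lists, read 7.80, 7.87 and 7.61 in the controls and 10.86, 9.89, 11.69 and 9.997 at 6 h (2.85 ± 0.34, adjusted p = 0.00109). Sik1 (Snf1lk), a kinase that restrains the CREB coactivators, rose by 2.33 ± 0.28 (adjusted p = 0.00117) and was the only called gene among 19 of the gluconeogenesis list (median 0.09). Pck1 gave 0.83 ± 0.31 (adjusted p = 0.215), G6pc 0.60 ± 0.14 (adjusted p = 0.0658) and Ppargc1a -0.27 ± 0.15 (adjusted p = 0.387). Outside the lists, and chosen after its values were seen, Hcar2 (Gpr109a), a receptor for hydroxybutyrate and niacin that inhibits adenylate cyclase, was higher by at least 1.53-fold (adjusted p = 0.00117). None of 16 genes of adenosine receptors, transport and purine turnover was called (median 0.22). Adk, the adenosine kinase, gave 0.03 ± 0.11 and Nt5e, the 5'-nucleotidase that makes extracellular adenosine, 0.28 ± 0.19.

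Of 10 genes of inhibitors that end MAP kinase signalling 3 rose and the other 7 were not called (median 0.41). Dusp1, a phosphatase of MAP kinases, read 9.58, 10.64 and 10.43 in the controls and 13.30, 13.61, 13.42 and 13.63 at 6 h (3.27 ± 0.22, adjusted p = 6.44e-06). Dusp6, which acts on ERK, rose by 1.53 ± 0.18 by the brightest of its probes (adjusted p = 0.000828). Dusp4 was at least 2.19-fold higher by one probe (adjusted p = 0.0253, 0.12 at worst without control 1, 2 or 3 or 6 h array 3), and its other probe gave 0.04. Among 14 mRNA decay factors Zfp36, which binds AU-rich elements of cytokine and early gene transcripts, rose by 3.31 ± 0.25 from 9.53, 9.83 and 10.51 to 13.74, 13.05, 13.51 and 12.79. Tob1, a recruiter of deadenylases, gave 0.76 ± 0.15 (adjusted p = 0.0361, 0.159 at worst without any 1 control, 6 h array 1, 2 or 3, or array 1 or 4 at 12 h). No member of this list fell by its brightest probe.

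Gdf15, a secreted stress cytokine, read 7.30, 8.48 and 7.42 in the controls and 11.52, 11.24, 10.85 and 10.55 at 6 h (3.31 ± 0.29, 9.88-fold). Ppp1r15a (Myd116), which reverses the phosphorylation of eIF2α, rose by 1.32 ± 0.16 (adjusted p = 0.00134), and Cebpb, a liver transcription factor, by 0.79 ± 0.15 (adjusted p = 0.0265, 0.128 at worst without control 1 or 2, 6 h array 1, 2 or 3, or array 1 at 12 h). With Atf3 these were the 4 called of 17 integrated stress response genes (median 0.36). The targets Trib3, Ddit3, Asns and Fgf21 gave -0.72, -0.50, -0.48 and -0.01, none called. Of 16 endoplasmic reticulum chaperone and unfolded protein response genes, and of 16 heat shock and cold-induced genes, none was called (medians -0.02 and 0.03). Among 16 p53 targets and growth arrest genes 3 rose (median 0.23). Gadd45g, a growth arrest gene, rose by both its probes, from 7.03, 7.84 and 8.31 to 11.25, 11.22, 11.62 and 11.53 (3.68 ± 0.25) and by 2.52 ± 0.19. Gadd45a rose by 1.86 ± 0.23 and 1.60 ± 0.16 by its probes. Trp53inp1, a p53 target of autophagy and cell death, gave 1.91 ± 0.35 (adjusted p = 0.0254, 0.124 at worst without any 1 control or 6 h array 1), and 1.21 by a dimmer probe that was not called. Cdkn1a, Mdm2 and Bbc3 gave 0.83, 0.19 and -0.49.

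Of 19 IL-6 and STAT genes 2 rose (median -0.02). Socs3, the inhibitor of IL-6 receptor signalling, read 7.12, 7.93 and 7.52 in the controls and 10.17, 10.52, 11.05 and 10.70 at 6 h (3.09 ± 0.23, adjusted p = 1.69e-05). Pim3, a survival kinase, rose by 1.86 ± 0.21 (adjusted p = 0.000755). Of 20 acute phase proteins none was called (median 0.00). Saa1 gave -0.47, Hp -0.06 and Fgg -0.30. Of 17 chemokines and cytokines Cxcl1, a neutrophil attractant, rose by 2.26 ± 0.33 (adjusted p = 0.00504), reading 6.76, 6.54 and 7.71 in the controls and 9.84, 9.07, 8.64 and 9.53 at 6 h. Cxcl10 gave 0.88 ± 0.15 (adjusted p = 0.0131, 0.0714 at worst without control 1 or 2), and Il1b 1.34 ± 0.30 (adjusted p = 0.0564). None of 11 genes of NF-kappaB and its feedback targets was called, with Nfkbia at -0.25.

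Among markers of blood cells 1 of 4 neutrophil, 1 of 5 platelet and 0 of 5 erythroid genes kept were called. S100a8, a neutrophil and monocyte protein, gave 2.01 ± 0.41 (adjusted p = 0.0436, 0.164 at worst without any 1 control, 6 h array 2, 3 or 4, or array 2, 3 or 4 at 12 h). It read 5.60, 5.47 and 6.43 in the controls and 6.98, 8.37, 7.45 and 8.58 at 6 h. Of 11 neutrophil markers 4 were kept and 1 was called; their mean level ran from 5.10 to 6.17 in the controls and from 5.52 to 7.11 at 6 h, and probes for the granule genes Mpo, Elane, Ngp and Camp did not pass the filter. Ppbp, a platelet chemokine, was at least 2.14-fold and 1.83-fold higher by its probes (adjusted p = 0.00206 and 0.0113). By the second probe the adjusted p was 0.0693 at worst without control 1 or 3. Tubb1, the β-tubulin of platelets, listed as 2810484G07Rik and chosen after its values were seen, was higher by at least 2.06-fold (adjusted p = 0.00447). The other 4 platelet markers kept were not called, and the mean level of the 5 ran from 5.25 to 5.53 in the controls and from 5.55 to 6.48 at 6 h. All 5 erythroid genes kept had positive values and none was called (median 0.70), at mean levels of 9.65 to 10.74 and 10.54 to 11.35. All 11 Kupffer cell and macrophage markers kept had values below 0, none was called (median -0.38), and their mean level ran from 8.55 to 8.89 in the controls and from 7.86 to 9.17 at 6 h. None of the markers of sinusoidal endothelium (11), stellate cells (8), cholangiocytes (7), T and natural killer cells (3) or B cells (3) was called. The part of these cells in the rises was not tested.

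Of 17 circadian clock genes kept, 3 were called, all higher (median 0.27). Per1, a repressor of the clock that glucocorticoids and cyclic AMP also induce, was called by 3 probes. The brightest, detected on 2 of 3 controls, read 5.66, 5.26 and 5.87 in the controls and 8.38, 7.55, 8.39 and 7.83 at 6 h (2.44 ± 0.24, adjusted p = 0.00018). Another probe was higher by at least 1.74-fold (adjusted p = 0.00699), and the remaining one gave 1.63 ± 0.28 (adjusted p = 0.0167, 0.086 at worst without control 1, control 2 or 6 h array 3). Bhlhe40 (Bhlhb2), a repressor of E-box genes, read 10.21, 9.996 and 9.62 in the controls and 11.11, 11.48, 11.91 and 11.82 at 6 h (1.64 ± 0.21, adjusted p = 0.00167). Ciart (Gm129), undetected in the controls, was at least 1.85-fold and 2.03-fold higher by its probes (adjusted p = 0.0254 and 0.0347). Both lost the call without any 1 control or 6 h array 1, and the second also without any 12 h array, with adjusted p at worst 0.107 and 0.12. Per2 gave 1.42 ± 0.50 (adjusted p = 0.195), Dbp -0.44 ± 0.27 and Bmal1 (Arntl) 0.16. A dim probe of Nr1d1 was higher by at least 1.93-fold (adjusted p = 0.031, 0.146 at worst without control 1 or 3, 6 h array 1, 2 or 3, or array 1 or 4 at 12 h), and the brighter one gave 1.34 ± 0.36 (adjusted p = 0.107). Noct (Ccrn4l), a rhythmic phosphatase gene chosen after its values were seen, gave 1.91 ± 0.36 (adjusted p = 0.0265, 0.124 at worst without control 2, control 3 or 6 h array 1). Of 14 glucocorticoid targets Dusp1, Per1 and the kinase gene Sgk1 (1.49 ± 0.17, adjusted p = 0.000828) rose, and Fkbp5, Tsc22d3 and Mt2 gave -0.03, -0.30 and 0.08 (median 0.20).

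Transporters and lipid genes among the called rises included some that differed widely between the treated livers. Slc38a2, an amino acid transporter, read 9.12, 9.60 and 9.37 in the controls and 12.88, 11.28, 13.09 and 11.26 at 6 h (2.76 ± 0.40, adjusted p = 0.00496). Slc16a10, a transporter of aromatic amino acids, read 5.35, 5.06 and 5.42 and then 8.47, 7.20, 8.73 and 6.88 by the probe listed as 2610103N14Rik, detected on 2 of 3 controls (2.55 ± 0.37), while its brighter probe gave 0.01 (adjusted p = 0.99). Etnk2, an ethanolamine kinase, read 6.57, 6.52 and 6.996 and then 10.37, 8.55, 10.99 and 7.97 (2.78 ± 0.58, adjusted p = 0.0474, 0.158 at worst without any 1 control, 6 h array 1 or 3, or any 12 h array). On 6 h arrays 1 and 3 these 3 genes were higher than on arrays 2 and 4, and all 4 arrays were above the controls. Arrays 1 and 3 also had the lower mean signals (468 and 458, against 635 and 607 on arrays 2 and 4). Whether the split lies in the livers or in array brightness was not tested. Chosen after their values were seen, Hilpda (2310016C08Rik), a lipid droplet protein that inhibits fat breakdown, rose by 2.14 ± 0.19 and 1.73 ± 0.14 by its probes (adjusted p = 9.28e-05 and 3.96e-05). The first read 7.52, 7.41 and 7.39 in the controls and 9.03, 9.68, 10.02 and 9.59 at 6 h. Mfsd2a (1700018O18Rik), a carrier of lysophospholipids, gave 1.73 ± 0.27 (adjusted p = 0.00966, 0.0589 at worst without control 2 or 3). The mitochondrial ATP-Mg carrier gene Slc25a25 rose by 1.28 ± 0.14 and the arrestin family gene Arrdc4 by 1.17 ± 0.15. Wsb1, a substrate receptor of a ubiquitin ligase, rose by 2.11 ± 0.21, and the ephrin gene Efna1 by 1.04 ± 0.15.

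Over all genes 1.03% were called, a share at which a list of this size can hold no called gene. The metabolic and housekeeping lists that follow held no called member by the brightest probe of each gene. This was so for 20 fatty acid oxidation genes (changes of -0.31 to 0.63), 20 fatty acid synthesis genes (-0.30 to 0.62), 21 cholesterol genes, 13 bile acid genes (-0.27 to 0.37) and 21 urea cycle and amino acid genes (-0.36 to 0.49). It held also for 20 cytochrome P450 genes (-0.94 to 0.49), 17 glycolysis and pyruvate dehydrogenase genes (-0.17 to 0.61), 17 haem genes (-0.42 to 0.53), 21 Nrf2 and antioxidant genes (-0.65 to 0.93) and 13 hypoxia targets (-0.63 to 0.92). Cyp7a1, the rate-limiting enzyme of bile acid synthesis, gave 0.19 ± 0.29, and Pdk4, which inhibits pyruvate dehydrogenase, 0.61 ± 0.30 (adjusted p = 0.326). Of 36 respiratory chain genes 11 and of 33 cytosolic ribosomal protein genes 6 had values above 0, against 46.8% over all genes. The medians were -0.13 and -0.16 and none was called. Against the control mean, the respiratory chain median was -0.26, -0.01, -0.13 and 0.01 on 6 h arrays 1 to 4. That of the ribosomal protein genes was -0.19, -0.10, -0.36 and -0.09. Over all genes the median was -0.02. The lists of nuclear receptors (18), proteasome (24), splicing (23), AMPK and mTOR (18), cytoskeleton (21) and cell cycle (12) had no called member. Among them Srsf5, a splicing factor, gave 1.54 ± 0.33 (adjusted p = 0.051). Of the 12 C/EBP and liver-enriched factors Cebpb alone was called, with Foxq1 at 1.69 ± 0.41 (adjusted p = 0.0854), and of 25 hepatokine, growth factor and IGF axis genes Gdf15 alone, with Igfbp1 at 1.58 ± 0.43 (adjusted p = 0.116). Of 20 interferon-induced genes Irf1 alone was called, at -0.79 ± 0.14 (adjusted p = 0.0211, 0.112 at worst without control 2 or 3), and its 3 other probes were not. The cold-shock genes Cirbp and Rbm3 gave -0.05 and 0.35.

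**Figure D3:**
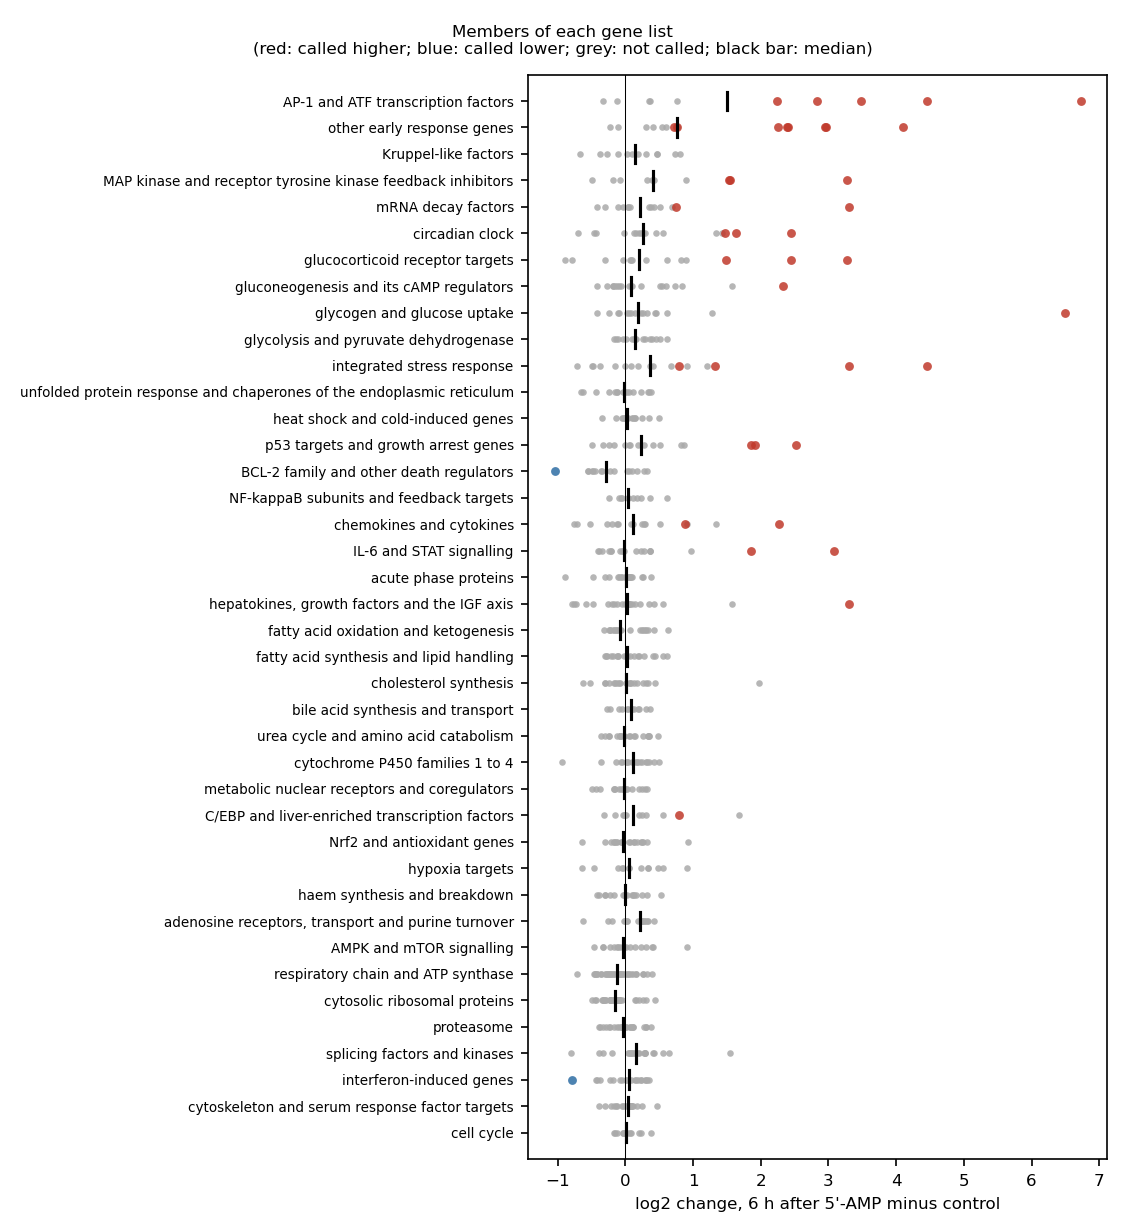
Log2 change at 6 h (x axis) of the brightest probe of each kept gene in 40 gene lists (rows), with called rises in red, called falls in blue, uncalled genes in grey and the median of a list as a black bar. Called genes gather in the upper rows of transcription factor, signalling and stress lists. The glycogen and gluconeogenesis lists hold 1 called rise each (Ppp1r3g and Sik1). The lists of fatty acid, cholesterol, bile acid, urea cycle and respiratory chain genes hold grey points only. Over all genes 1.03% were called, so that such lists can hold none at that share.

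The largest named fall was that of Osgin1, listed as 1700012B18Rik, an oxidative stress-induced growth inhibitor. It read 11.77, 12.03 and 11.92 in the controls and 10.39, 9.91, 9.40 and 10.81 at 6 h, a change of -1.78 ± 0.26 (3.43-fold lower, adjusted p = 0.00504). Every treated liver lay below every control, and within the 3 chips the changes were -1.77, -2.63 and -0.96. In the fit of the 7 arrays alone its adjusted p was 0.0538. Dido1, a chromatin protein, read 7.11, 7.12 and 7.36 and then 6.34, 6.00, 6.16 and 6.23 (-1.02 ± 0.14, adjusted p = 0.00252), though its other probes gave 0.25 and 0.07. Lto1 (Oraov1), an adaptor of cytosolic iron-sulphur cluster assembly, read 9.01, 8.76 and 8.91 and then 7.77, 7.33, 6.67 and 7.72 (-1.52 ± 0.31, adjusted p = 0.0429, 0.156 at worst without any 1 control, 6 h array 2 or 3, or array 3 or 4 at 12 h). Osgin1 and Dido1 were the named falls that stayed called whichever of the 11 arrays was left out.

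The other named falls were each smaller than those of Osgin1 and Lto1. Cflar, an inhibitor of caspase-8 listed as 2310024N18Rik, read 8.28, 8.29 and 8.45 in the controls and 7.09, 7.53, 6.94 and 7.62 at 6 h (-1.04 ± 0.17, adjusted p = 0.0124, 0.0738 at worst without control 2 or 3). It was the called member among 16 BCL-2 family and death genes, whose median of -0.28 lay below that of all genes, with Bid at -0.55 and Bcl2 at -0.48, neither called. Cnot3, a subunit of the deadenylase complex, fell by the probe listed as A930039N10Rik (-1.44 ± 0.24, adjusted p = 0.0156, 0.0774 at worst without any 1 control) and gave 0.05 by its brightest probe. Rab5b, a GTPase of early endosomes, gave -1.19 ± 0.22 (adjusted p = 0.0253, 0.124 at worst without control 2, control 3 or 6 h array 3) and 0.05 to 0.27 by its 3 other probes. H13, the signal peptide peptidase, gave -1.16 ± 0.21 (adjusted p = 0.0254, 0.114 at worst without control 1, control 3 or 6 h array 1 or 3), and Ciao3 (Narfl), which inserts iron-sulphur clusters into cytosolic proteins, -1.14 ± 0.18 (adjusted p = 0.00966, 0.0621 at worst without control 1 or 3). Habp4, an RNA-binding protein, read 7.40, 7.87 and 8.05 and then 6.00, 6.93, 6.18 and 6.76 (-1.31 ± 0.23, adjusted p = 0.0211, 0.112 at worst without control 2, control 3 or 6 h array 3). Every one of these falls separated the arrays of the groups, as the naming rule required. Of the 4 arrays at 6 h the probes of Cnot3 and Rab5b were detected on 1, that of H13 on 2 and that of Ciao3 on 3.

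Some mitochondrial genes were picked from the small falls after the values were seen. The share of such genes among all probes was not counted. Ndufaf4 (3000003G13Rik), an assembly factor of complex I, gave -0.61 ± 0.11, Pam16 (Magmas), of the protein import motor, -0.65 ± 0.13, Fmc1 (1110001J03Rik), of ATP synthase assembly, -0.64 ± 0.14, Car5a, the mitochondrial carbonic anhydrase, -0.56 ± 0.12, and Esrra, a nuclear receptor of mitochondrial genes, -0.55 ± 0.11 by one probe. Their adjusted p lay between 0.0211 and 0.04996. The other kept probe gave 0.02 in Ndufaf4, -0.36 in Pam16 and -0.44 in Esrra, none of them called. Keap1, the repressor of Nrf2, gave -0.65 ± 0.11 (adjusted p = 0.0211) by one probe. The call was lost in Car5a without any 1 of the 11 arrays (adjusted p at worst 0.171) and in Fmc1 without any but 6 h array 2 (0.183). It was lost without any 1 control, 6 h array 1 or 3, or array 1, 2 or 4 at 12 h in Esrra (0.14), without control 1 or 3, 6 h array 1 or 3, or array 1, 2 or 4 at 12 h in Pam16 (0.156), and without any 1 control or 6 h array 3 in Keap1 (0.094). In Ndufaf4 it was lost without any 1 control or 6 h array 1 or 3 (0.1001). No gene of the respiratory chain list was called.

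**Figure D4:**
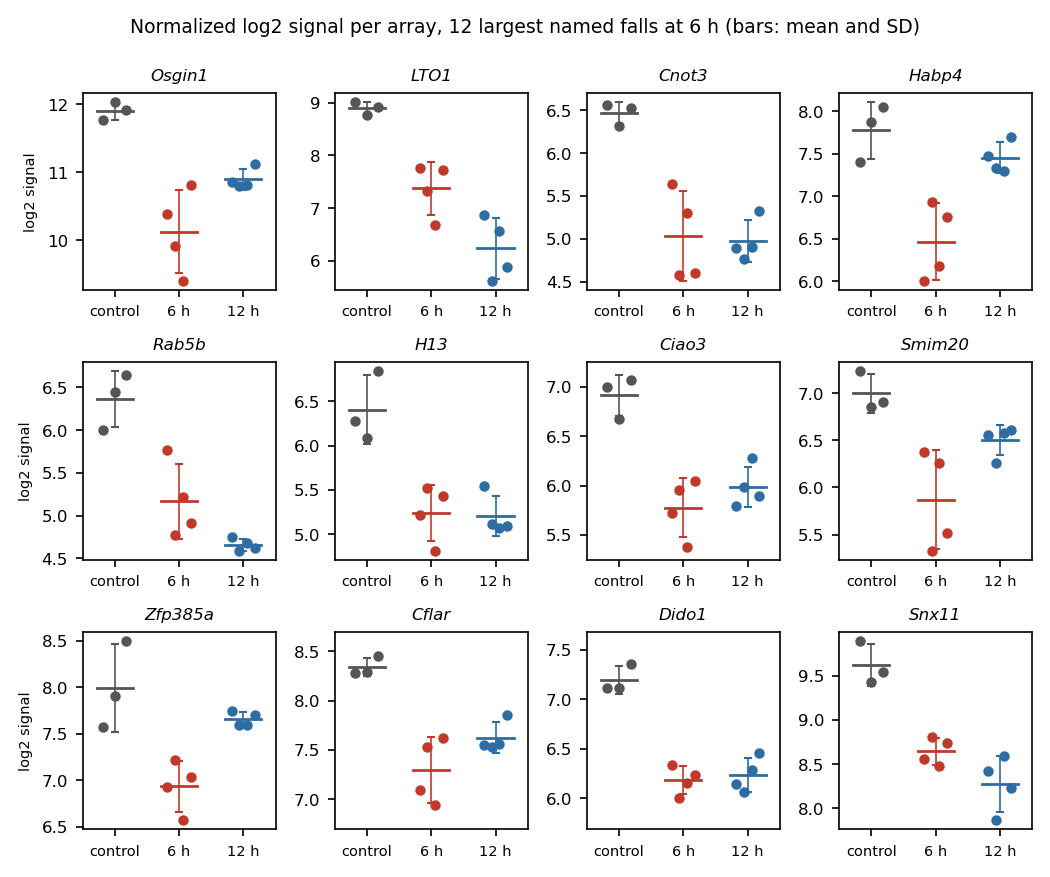
Normalized log2 signal (y axis, own scale per panel) on each array for the 12 named genes with the largest falls, by group: 3 controls (grey), 4 arrays at 6 h (red) and 4 at 12 h (blue), with group mean and SD. The highest 6 h array lies below the lowest control in every panel, as the naming rule required. The spread at 6 h is wide in Osgin1, Cnot3 and Smim20.

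Detection was also counted, as a description. It comes from the same arrays and sets the filter, so that a probe undetected throughout a group passed only through the other group. Over all probes 0.959% were called, and the counts of calls below, among probes picked by detection, are no result about them. Of the 16061 probes kept, 67 were detected on all 4 arrays at 6 h and on no control. Of these 23 were called, among them Atf3, Fosb, Rgs1, Ier2, Ciart and the H3f3b probe described below. The reverse, detected on all 3 controls and on no 6 h array, held for 29 probes, of which 5 were called. Skp2, an F-box protein that marks the cell cycle inhibitor p27 for breakdown, was among these. It read 5.90, 5.70 and 5.88 and then 4.99, 5.21, 5.24 and 5.05, at least 1.40-fold lower (adjusted p = 0.0167, 0.0872 at worst without control 1 or 3).

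Calls often differed between probes of a gene. Of 58 called genes with over 1 probe kept, 11 had all probes called and 47 had a probe that was not called or had the opposite sign, and 83 called genes had 1 probe. A missed call did not always mean another change, since Tab1 (Map3k7ip1) gave -0.88 and -0.84 and Sec61b -0.62 and -0.68, with the second of each pair not called (adjusted p = 0.0513 and 0.0834). The widest gap was in H3f3b, a gene of histone H3.3. The probe listed as 9430068D06Rik, undetected in the controls, read 10.52, 8.67, 10.42 and 8.33 at 6 h and was higher by at least 17.1-fold (adjusted p = 0.00022), and the probe listed as H3f3b gave 0.65 ± 0.16 (adjusted p = 0.0814). A probe of Pdhb, a pyruvate dehydrogenase subunit, gave 2.23 ± 0.46 (adjusted p = 0.0453, 0.15 at worst without any 1 control, 6 h array 1 or 3, or any 12 h array) against -0.04 to 0.25 by its 3 other probes. Slc38a2 gave 2.76, 1.09 and -0.35, and Thrsp, a regulator of lipid synthesis, was at least 1.87-fold higher by a dim probe (adjusted p = 0.0167, 0.081 at worst without any 1 control) and gave 0.10 by a bright one. Rpl38 gave -0.82 by a dimmer probe (adjusted p = 0.0468, 0.17 at worst without any 1 control, 6 h array 1 or 3, or any 12 h array) and 0.00 by the brighter. Which transcripts these probes detect was not tested. By contrast all kept probes were called in Gadd45g, Gadd45a, Rgs1, Hilpda, Ppbp and Ppp1r3g.

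The treated livers differed among themselves more than the controls did. The median SD over all probes was 0.236 at 6 h, 0.194 in the controls and 0.181 at 12 h. The called probes were chosen by the test on these same arrays, so that their means per array only describe the size of the change. Against the control mean the 98 called rises averaged 2.03, 1.74, 2.22 and 1.70 on 6 h arrays 1 to 4, and the 56 called falls averaged -0.86, -0.82, -0.98 and -0.87. Among called genes with a gene name and changes over 1, the 6 with the widest spread at 6 h were Etnk2 (SD 1.44), Pdhb, H3f3b, Slc38a2, Slc16a10 and Trp53inp1, each higher on arrays 1 and 3 than on arrays 2 and 4. Arrays 1 and 3 were also those of lower mean signal. The clones 9930108O06Rik and 8430403J19Rik, which have no gene name here, both had an SD of 1.02. The 6 with the narrowest spread were Ccn1 (SD 0.13), Dusp6, Dido1, Egr1, Atf3 and Dusp1.

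**Figure D5:**
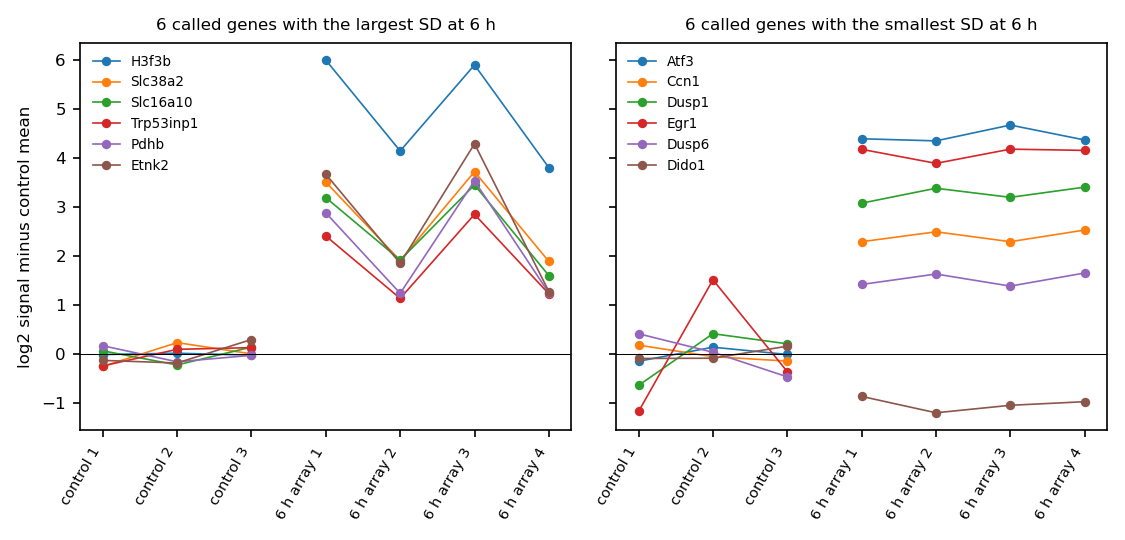
Log2 signal minus the control mean (y axis) on each of the 7 arrays (x axis) for the named called genes with the widest (left) and narrowest (right) spread at 6 h, lines joining the values of a gene within a group. On the left every gene lies higher on arrays 1 and 3 than on arrays 2 and 4, with Etnk2 (SD 1.44) the widest, and on the right the genes stay level over the 4 treated arrays (SD 0.13 for Ccn1).

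Values at 12 h stand beside those at 6 h and share the same controls. Of all probes 125 (0.778%) differed between 12 h and 6 h, and among the 154 called at 6 h 20 did. The 154 were called in the same fit, with the same 6 h arrays and the same estimate of spread per probe. The count of 20 is therefore not independent of the calls and is no result about the 154. Among these 20, the rise was larger at 12 h in 17 and smaller in 2, and in 1 the fall was larger. Atf3 gained 1.79 (adjusted p = 3.52e-05), Ciart 2.82 (adjusted p = 0.000881) and Gadd45a 1.63 (adjusted p = 0.00619). The smaller rises were those of Ier2, with a difference of -1.26 (adjusted p = 0.0278), and 2900060B14Rik, a long non-coding RNA in RefSeq. This RNA read 7.69, 9.55, 7.97 and 8.66 at 6 h against 6.38, 5.58 and 6.98 in the controls, and its 12 h mean was 5.98 (difference -2.49, adjusted p = 0.0119). Fos read 11.40 on average at 12 h, a difference of -0.87 from 6 h (adjusted p = 0.079), and Dusp1, Gadd45g and Socs3 differed between the times by -0.24, 0.05 and 0.43, none called. Mlst8 (Gbl), an mTOR complex subunit, was the fall that was larger at 12 h, at -0.65 ± 0.13 at 6 h (adjusted p = 0.0343, 0.15 at worst without any 1 control, 6 h array 1 or 3, or array 1 or 2 at 12 h) and a further -0.73 at 12 h (adjusted p = 0.0144). With the chip as a block in limma, 0 of the 154 differed between the times at an adjusted p under 0.05, and 62 did at an unadjusted p under 0.05. Without 12 h array 1 or 4 the count of 20 became 12.

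Rises and falls differed in how they held under other settings. They also differed in size, with a median change of 1.68 over all called rises and -0.78 over all called falls. Whether size or direction goes with the loss of calls was not tested. Of 77 called probes that the text or the naming rule picks out and that rose, 47 stayed called under every setting that tested them. Of these 77, 51 stayed called whichever array was left out, 53 with the chip as a block and 50 in the fit of the 7 arrays. Of 37 that fell, 1 (Dido1) stayed called under every setting, 2 whichever array was left out, 6 with the chip as a block and 1 with the 7 arrays. No direction reversed. Among the genes given above with no single array behind their call, Fosl2, Slc38a2 and Slc16a10 passed just outside the threshold with the 7 arrays (adjusted p = 0.0508, 0.054 and 0.0512), and Slc16a10 and Tubb1 also lost the call with the chip as a block (adjusted p = 0.0582 and 0.0523).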

How the data were processed

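Liver total RNA was amplified and biotin-labelled by the standard Illumina protocol and hybridised to 1 array per mouse, per the labels. The authors exported probe intensity with GenomeStudio (version not given in the sources used here), per the submitters' processing notes, and deposited a non-normalized table of signal intensity and detection p-values, per the file headers. A further deposited table holds intensity values that the authors had normalized and was used as an alternative.

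Signals were corrected with normexp from the detection p-values (offset 16), quantile-normalized over all 11 arrays and put on the log2 scale. Probes that passed the detection filter (0.05, 3 of the 7 arrays) were tested with limma 3.58.1 (R 4.3.3, statmod 1.5.0) in a fit of the 3 groups, with Benjamini-Hochberg adjustment over all kept probes. The fit was tested on simulated data. The labels number separate mice, so that p-values measure the spread between animals, and the number of arrays limits precision. The group of 12 h enters the estimate of spread and the comparison of times. Array names were updated through RefSeq symbols and synonyms: 6511 names were current, 3656 were synonyms and 1698 had no match.

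For a probe not detected on any array of a group, "at least" folds compare the mean of the brighter group with, per array of the dimmer, the higher of the lowest detected signal and the probe's own. A left-out array means normalization and fit were repeated without it, and an adjusted p given as "at worst" is the highest over these fits. Lists use the brightest kept probe of each gene.

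Genes were named by rule: the 25 largest rises and falls with a gene name, up to 4 called members of a list or its smallest p, the 6 widest and 6 narrowest spreads at 6 h among genes with a name, up to 12 switches of detection each way, up to 10 genes with the largest gaps between probes, up to 10 differences each way between the times, and a few metabolic and clock genes. Genes outside it were chosen after their values were seen, among them uncalled members given for contrast. Some genes are not reported here. The members, lists and rule were chosen with earlier results of these data known.

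Alternatives were no background correction, an offset of 50, median centring, the authors' values, 3 other filters, 1 probe per gene, the 7 arrays alone, array weights, a trended robust prior, the replicate number, the chip as a fixed or random block, each array left out and, chosen after seeing the data, array brightness as a covariate.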

Additional observations from a re-analysis of the deposited data

Results flagged for a closer look

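In 10 of 170 probes tested, a 6 h array stood apart from the other three by Dixon's criterion for 4 values, and chance flags about 1 in 20 groups. Array 3 was high in Atf3 (9.52, the others 9.20 to 9.24) and in Slc25a25 (12.50, the others 12.14 to 12.18). Array 2 was low in Egr1 (13.48, the others 13.75 to 13.77), Cxcl10 (6.19, the others 6.65 to 6.74) and Irf1 (10.64, the others 10.99 to 11.01), and high in the muscle gene Mylpf (9.42, the others 5.43 to 5.58). Array 4 was low in the dimmest Per1 probe (5.42, the others 6.34 to 6.50) and high in the liver transcription factor Hhex (11.20, the others 10.82 to 10.88). Array 1 was high in Alad, of haem synthesis (13.07, the others 12.96 to 12.97), and low in Saa4, a constitutive apolipoprotein (11.66, the others 12.11 to 12.20).

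Among the 170 probes run, 26 differed between 12 h and 6 h in the limma fit, against 0.778% of all probes. Some of the 170 were named because they differed between the times, so that the count is no result about them. Some of the 26 were not called at 6 h. With the chip as a block, 1 of all 16061 probes differed between the times. Transcription factors and early genes were higher at 12 h: Atf3 by 1.79 (adjusted p = 3.52e-05), Fosb by 1.31 (0.00863), Jun by 1.02 (0.0167), Ccn1 by 1.06 (0.00421), Csrnp1 by 1.41 (0.00332) and Cebpb by 0.84 (0.0144). Ier2 was lower (-1.26, adjusted p = 0.0278). Clock probes were higher, with Nr1d1 at 2.85 and 2.91 (adjusted p = 0.000256 and 0.00204), Ciart at 2.82 and 2.66 (0.000881 and 0.000924) and a Per1 probe at 2.06 (0.00146). Stress and growth genes were higher too, namely Gadd45a by 1.63 and 1.22 (adjusted p = 0.00619 and 0.00327), Ppp1r15a by 0.80 (0.0341), Ddit4 by 1.43 (0.00875), Txnip by 1.30 (0.0119) and Pim3 by 1.40 (0.00875). The other probes higher at 12 h were Irf2bp2 (1.0, adjusted p = 0.0119), Efna1 (0.81, 0.0197), the uncalled H3f3b probe (0.88, 0.0174), Cirbp (0.78, 0.0186) and E030034J16Rik (2.07, 0.00102). Lower at 12 h were 2900060B14Rik (-2.49, adjusted p = 0.0119), Mlst8 (-0.73, 0.0144) and Reln (-0.62, 0.0415). The 12 h arrays carry another group label, and time and label cannot be told apart.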

How the results depend on the processing

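Under the alternatives run, none of the 114 named called probes changed direction where tested. Under each alternative that tested them 48 stayed called, and 53 stayed called whichever of the 7 arrays was left out. The strictest detection filter tested 68 of the 114, and 1 probe per gene tested 81. The counts moved more. Against 154 called, 98 higher and 56 lower, with 20 that differed at 12 h, no background correction gave 290, 174, 116 and 52, median centring 298, 277, 21 and 90, a trended robust prior 264, 159, 105 and 42, and array brightness as a covariate, chosen after seeing the data, 600, 344, 256 and 58. An offset of 50 gave 37 that differed at 12 h. The 7 arrays alone, with fewer samples, gave 58, 53 and 5, the chip as a block 68, 59, 9 and 0, and the chip as a random block 249 called and 103 lower. The share of rises, 63.6%, became 93% with median centring, 91.4% with the 7 arrays, 86.8% with the chip block and 78% with the replicate block. Leaving out 1 array gave 73 to 258 called, 62 to 166 higher, 8 to 92 lower and 12 to 26 that differed at 12 h, with 58.9% to 89% rises. Fitting the replicate number as a block gave 127 called, 99 higher and 28 lower, 94 of them shared, but arrays of the same number did not deviate together (correlations of -0.222, -0.095 and -0.091), so that the numbers give no pairing. The causes of these moves were not tested.

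Probes below background in a group carry only bounds, and 1 array per mouse leaves technical spread unmeasured. The labels give neither the time at which controls were killed nor the feeding state.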

Other observations

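Some called rises were outside the lists and chosen after their values were seen. Arl4a, a small GTPase, was higher by 1.67 ± 0.24 and 1.36 ± 0.16 by its probes (adjusted p = 0.00438 and 0.00109), reading 8.57, 8.43, 8.99 and 8.47 at 6 h by the second against 7.06 to 7.38 in the controls. Irf2bp2, a transcriptional corepressor, rose by 1.15 ± 0.16 by one probe (adjusted p = 0.00465), and gave 0.59 by another. Ptp4a1, a tyrosine phosphatase induced in regenerating liver, rose by 1.08. These stayed called whichever array was left out.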
